A study of Saccharomyces cerevisiae with 36 samples.

Results

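The *gal80Δ* strain was compared with the wild type after growth on 0.1% fructose alone, 10 h after mid-log. These were 3 libraries of *gal80Δ* and 3 of the wild type, out of 36 libraries in the series, and all 5697 counted genes were considered. Both strains are *Saccharomyces cerevisiae* in the prototrophic FY4 background and differ by design in the deletion of *GAL80*. Nothing in the sources used here says how many independent deletion clones were grown, or whether the strains differ elsewhere in the genome. All 6 cultures came from pyruvate medium and were washed into minimal (Delft) medium whose sugar was fructose. The rest of the series sampled the same strains at mid-log and at 16 h after mid-log, and in a mixture of 0.1% fructose and 0.9% palatinose. Libraries counted the 3′ ends of polyadenylated transcripts, and values are given as CPM, the counts of a gene scaled to the total of its library, which suits comparison of one gene between samples. The replicates are 3 cultures per group, labelled A, B and C.

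Gal4 is the transcriptional activator of the yeast galactose (*GAL*) regulon. It binds upstream of the *GAL* genes whether or not galactose is present, and the repressor Gal80 covers its activation domain until Gal3, the galactose sensor, relieves it. Fructose does not engage Gal3, so cells without Gal80 offer Gal4 activity with no galactose in the medium. Galactose enters through the permease Gal2 and is turned into glucose 6-phosphate by Gal1, Gal7 and Gal10 and by a phosphoglucomutase, and glycolysis takes it from there. In yeast the genes for hexose uptake and glycolysis answer in turn to how much sugar the cell senses, through Mth1, Std1, Rgt1 and the Mig repressors.

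Totals lay between 6750242 and 10097597 counts in the 6 libraries, and between 6020770 and 11785148 in all 36. Wild-type replicate B stood apart: on the first principal component of the 6 libraries, which held 50.3% of the variance, it lay at -44.3, against -2.21 and -0.18 for wild-type replicates A and C and 12.98 to 19.6 for the 3 *gal80Δ* libraries. Correlations between replicates were 0.963 to 0.987 in *gal80Δ* and 0.939 to 0.989 in the wild type. The OD at harvest was 1.5, 1.45 and 1.45 in the *gal80Δ* cultures and 1.55, 1.5 and 1.5 in the wild-type cultures, a mean difference of -0.05 (two-sided exact permutation test, p = 0.3, with 0.1 the smallest p that 3 against 3 allows). Where a named call was lost without wild-type replicate B, this is said beside it. Losses without another library are mostly not marked. Of 114 named calls, 28 were lost without *gal80Δ* replicate A, 25 without wild-type replicate C and 23 without *gal80Δ* replicate C. *STD1*, *PHO84*, *IMD3*, *CAR1*, *DUR3* and *RRT5* are among those lost without some library other than wild-type replicate B.

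The deleted gene was checked first. *GAL80* (YML051W, counted over chrXIII:171475-173044, R64) had 13.4, 8.35 and 9.04 CPM in *gal80Δ*, against 75.6, 116.6 and 69.1 CPM in the wild type. No library of one strain overlapped the other, also across the whole series, where the 18 *gal80Δ* libraries had 8.10 to 17.2 CPM of *GAL80* and the 18 wild-type libraries 45.9 to 116.6 CPM. Counts were therefore fewer but not 0 in the deletion strain (log2 fold change -3.002 ± 0.20 SE, edgeR adjusted p = 1.85e-12), and what the remaining reads come from was not tested.

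Gal4 recognises CGG and CCG separated by 11 bases, and the sites shown are those upstream of the *GAL* genes, other Gal4 targets and some other raised genes described below, because their results are read beside them. Apart from *GAL80*, no site is shown for a gene called lower, though some have one. Coordinates are those of R64, each site is written 5′ to 3′ on the reference strand, and capitals mark the 2 conserved triplets. The motif is its own reverse complement, so both strands were searched at once, within 500 bases upstream of each coding start. *GAL1* and *GAL10* are divergently transcribed and share 3 sites in the window.
GAL1 and GAL10, chrII:278568-278584: CGGattagaagccgCCG
GAL1 and GAL10, chrII:278587-278603: CGGgcgacagccctCCG
GAL1 and GAL10, chrII:278605-278621: CGGaagactctcctCCG
GAL7, chrII:275703-275719: CGGtcaacagttgtCCG
GAL2, chrXII:289796-289812: CGGcggtctttcgtCCG
GAL2, chrXII:289815-289831: CGGagatatctgcgCCG
GAL2, chrXII:289879-289895: CGGggcggatcactCCG
GAL2, chrXII:289884-289900: CGGatcactccgaaCCG
GAL3, chrIV:463146-463162: CGGtccactgtgtgCCG
GAL80, chrXIII:171422-171438: CGGcgcactctcgcCCG
GCY1, chrXV:550745-550761: CGGggcagactattCCG
RGL1 and HTC1, chrXVI:426135-426151: CGGtcatcactgctCCG
FAR1, chrX:126671-126687: CGGgtctctcttgcCCG
ADH6, chrXIII:912363-912379: CGGtcaaggacggaCCG
MLF3 and MSK1, chrXIV:488274-488290: CGGagtgctcttcgCCG
LAP3, chrXIV:200418-200434: CGGctgacaagtcgCCG
PCL10, chrVII:255431-255447: CGGagtatattgcaCCG
MTH1, chrIV:1016155-1016171: CGGactccatttccCCG
The last 2 *GAL2* sites overlap each other. *MLF3* with *MSK1* and *RGL1* with *HTC1* are further divergent pairs that share 1 site each, and the *LAP3* site is shared with *NAR1*.

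Of 5479 genes tested, 188 (3.43%) were called higher and 223 (4.07%) lower in *gal80Δ*, 411 (7.5%) in all. A call needed a log2 change of more than 0.5 in size together with an edgeR adjusted p below 0.05. A group of 4 *GAL* genes stood far above the rest, and only a few others passed a log2 change of 2, 14 higher and 8 lower in all. Most calls were modest: 142 of the higher and 182 of the lower genes changed by a log2 of 1 or less. CPM of the 2 groups did not overlap for 172 of the genes called higher and 213 of those called lower, against 998 genes (18.2%) of all tested. Without wild-type replicate B the counts were 106 higher and 136 lower, and 97 and 115 of the original calls were among them. Without *gal80Δ* replicate C they were 115 and 174. 67 of the higher and 88 of the lower genes passed whichever single library of the 6 was left out. In a fit of the 6 libraries alone, where the spread is estimated from them only, 25 and 14 passed.

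**Figure D1:**
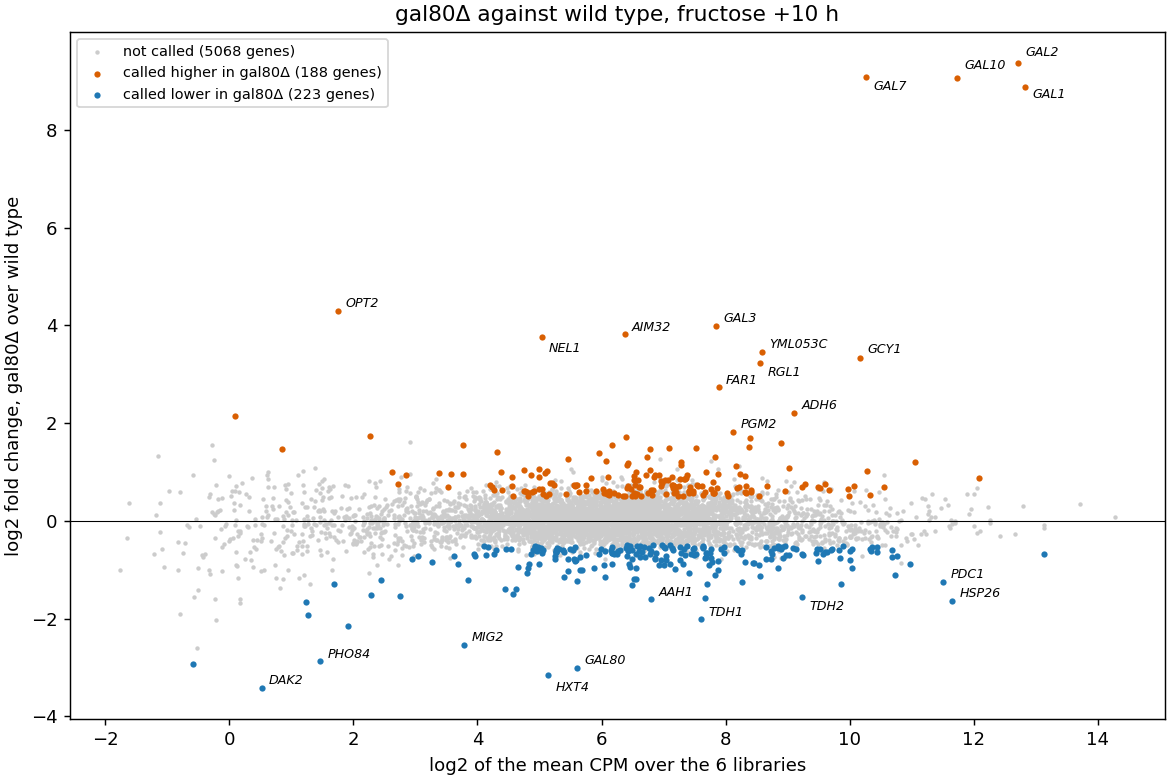
Each point is 1 of the 5479 genes tested, with the log2 of its mean CPM over the 6 libraries on the x axis and the log2 fold change of *gal80Δ* over wild type on the y axis. The 188 genes called higher and 223 called lower are coloured, and *GAL2*, *GAL7*, *GAL10* and *GAL1* stand apart near a log2 fold change of 9.

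The 4 structural *GAL* genes rose far above their wild-type levels in every library. *GAL1*, the galactokinase, had 18379, 11803 and 13161 CPM in *gal80Δ*, against 34.6, 30.3 and 32.1 CPM in the wild type. *GAL10*, the epimerase and mutarotase that shares its upstream region, had 6370, 7214 and 6694 CPM in *gal80Δ*, against 15.4, 7.83 and 15.5 CPM in the wild type. *GAL7*, the uridylyltransferase, had 2066, 3107 and 2221 CPM in *gal80Δ*, against 6.74, 2.25 and 4.95 CPM in the wild type. Wild-type replicate B was the lowest wild-type library for these 3 genes. *GAL2*, the galactose permease, had 14342, 10349 and 15530 CPM in *gal80Δ*, against 23.5, 15.02 and 24.6 CPM in the wild type. The log2 fold changes were 8.87 ± 0.48 SE for *GAL1*, 9.06 ± 0.46 for *GAL10*, 9.07 ± 0.42 for *GAL7* and 9.36 ± 0.50 for *GAL2*, with edgeR adjusted p-values between 2.52e-16 and 6.30e-15. Together the 4 genes took 4.12%, 3.25% and 3.76% of all counts in the *gal80Δ* libraries, against 0.00803%, 0.00554% and 0.00771% in the wild type (two-sided exact permutation test, p = 0.1, the smallest possible). Such a share lowers the CPM of all other genes slightly, and the median log2 fold change over all genes was 0.03 with TMM scaling and -0.02 with library size alone.

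The regulators of the pathway did not move together. *GAL3*, the galactose sensor, had 489.5, 402.7 and 405.9 CPM in *gal80Δ*, against 31.6, 26.6 and 26.6 CPM in the wild type. Its log2 fold change was 3.99 ± 0.20 SE (edgeR adjusted p = 1.48e-15), below those of the structural genes. *GAL4*, the activator itself, had 26.4, 28.6 and 26.96 CPM in *gal80Δ*, against 31.9, 44.1 and 27.5 CPM in the wild type. The groups overlapped, since 1 *gal80Δ* library lay above the lowest wild-type library, and the difference did not pass the test (log2 fold change -0.28 ± 0.17 SE, edgeR adjusted p = 0.31).

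All 6 further Gal4 targets on the list were called higher, against 3.43% of all genes. The groups did not overlap for any of them, against 18.2% of all genes without overlap in either direction. The list was written with earlier results of these data known, so its count is no independent test. *GCY1*, an aldo-keto reductase of glycerol metabolism, had 1751, 2580 and 1937 CPM in *gal80Δ*, against 219.8, 265.4 and 161.9 CPM in the wild type (log2 fold change 3.33 ± 0.18 SE, edgeR adjusted p = 6.30e-15). *PGM2*, the main phosphoglucomutase and the last step from galactose into glucose 6-phosphate, had 374.0, 519.8 and 397.5 CPM in *gal80Δ*, against 144.3, 142.2 and 89.5 CPM in the wild type, a log2 fold change of 1.83 ± 0.20 SE. *LAP3*, also known as *GAL6* and bleomycin hydrolase, had 454.8, 533.3 and 533.2 CPM in *gal80Δ*, against 159.9, 186.2 and 138.4 CPM in the wild type, a log2 fold change of 1.70 ± 0.12. *PCL10*, a cyclin that directs the kinase Pho85 to glycogen synthase, had 238.0, 307.9 and 263.4 CPM in *gal80Δ*, against 91.4, 116.0 and 90.2 CPM in the wild type. *MTH1*, which represses hexose transporter genes together with Rgt1, had 174.0, 238.8 and 234.9 CPM in *gal80Δ*, against 92.9, 111.4 and 84.8 CPM in the wild type, a log2 fold change of 1.21 ± 0.10 SE (edgeR adjusted p = 5.44e-10). *FUR4*, the uracil permease, showed the least of these rises (0.73 ± 0.16 SE, edgeR adjusted p = 0.0040) and was the 1 member that did not pass in the fit of the 6 libraries alone (edgeR adjusted p = 0.13). In that list *GCY1*, *LAP3*, *PCL10* and *MTH1* have a site in the 500 bases searched, and no match of these letters was found there for *PGM2* and *FUR4*.

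**Figure D2:**
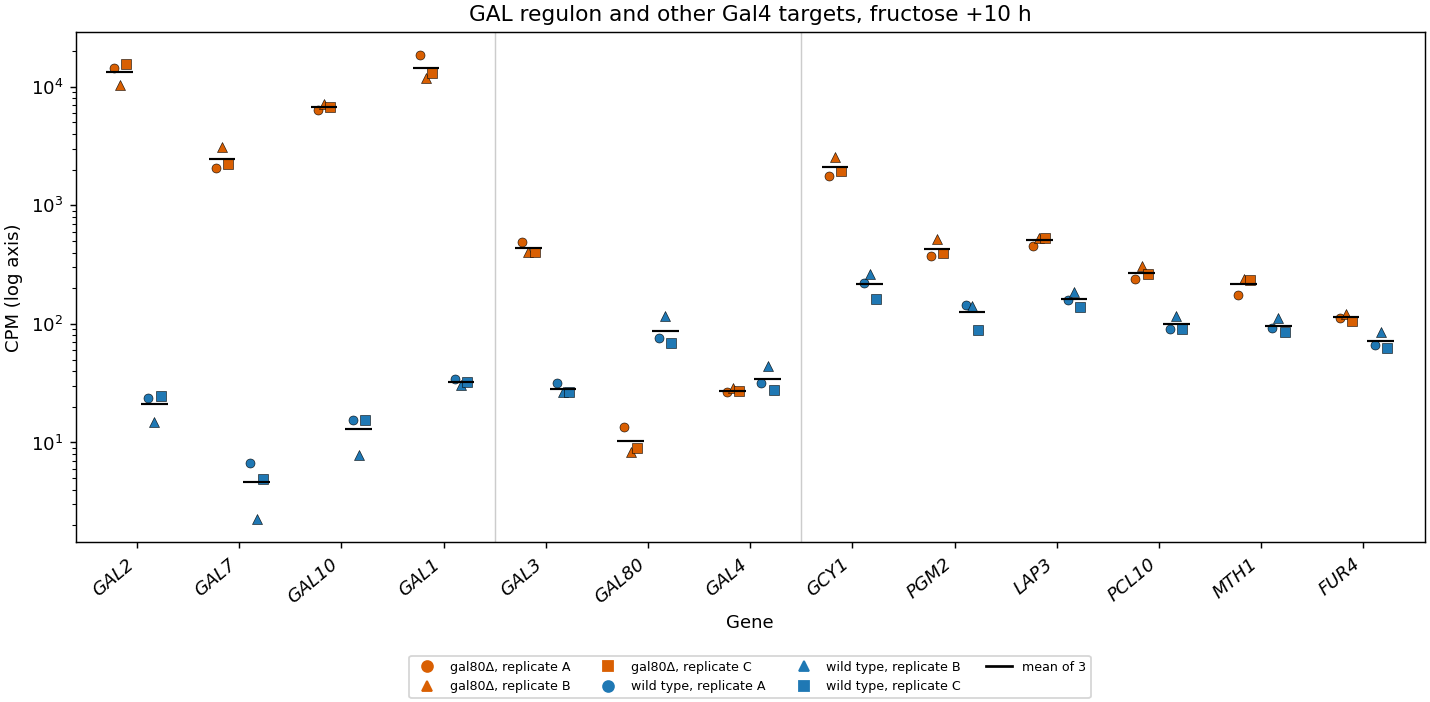
CPM on a log axis of the *GAL* structural genes (left block), the *GAL* regulators (middle block) and 6 other Gal4 targets (right block) in each library, with *gal80Δ* left of wild type, a marker shape for each replicate and a bar for the mean of 3. Every gene shown but *GAL4* has groups that do not overlap, and *GAL80* is the gene that is lower in *gal80Δ*.

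The motif was not limited to the known targets. It was found upstream of 25 of the 187 genes called higher that have a coding window (13.4%) and of 13 of the 219 called lower (5.94%), against 158 of all 5371 (2.94%). Among genes that rose by a log2 of more than 1 it was found for 17 of 45, and among those that rose by 1 or less for 8 of 142. The 25 and the 17 include the known targets *GAL1*, *GAL2*, *GAL3*, *GAL7*, *GAL10*, *GCY1*, *LAP3*, *PCL10* and *MTH1*. Shares without these were not computed, and divergent genes that share a site were each counted. Without wild-type replicate B the shares were 22 of 105 genes called higher and 8 of 134 called lower. Of the 158 genes with the motif 120 were not called, *GAL4* among them, and the 13 called lower include *GAL80* itself. *MIG2*, *PHO84*, *HXT3*, *LEU1* and *LYS1*, described below as lower, are also among the 13.

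Genes outside the known targets also rose and carry a site. *RGL1*, a regulator of Rho1 signalling, had 518.0, 762.4 and 758.6 CPM in *gal80Δ*, against 71.6, 74.1 and 77.4 CPM in the wild type (log2 fold change 3.23 ± 0.11 SE, edgeR adjusted p = 2.84e-19). *FAR1*, the inhibitor of G1 cyclin-dependent kinase used in pheromone arrest, had 352.2, 407.0 and 471.1 CPM in *gal80Δ*, against 50.6, 80.4 and 61.4 CPM in the wild type, a log2 fold change of 2.73 ± 0.16. *ADH6*, an NADPH-dependent alcohol dehydrogenase, had 964.7, 788.0 and 942.0 CPM in *gal80Δ*, against 174.9, 240.2 and 195.6 CPM in the wild type, a log2 fold change of 2.21 ± 0.16. Each of these held in the fit of the 6 libraries alone. *MLF3*, a serine-rich protein, was named after its value was seen and had 112.6, 140.9 and 128.4 CPM in *gal80Δ*, against 50.8, 34.7 and 34.4 CPM in the wild type.

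Genes divergent from these were looked at after the values were seen. Of 24 sets of divergent genes that share a site, 9 had a gene called higher, in 3 of them both genes were, and in 6 the partner was not. *NAR1*, which shares the *LAP3* site, was among the partners not called (log2 fold change -0.23, edgeR adjusted p = 0.40). *MSK1*, the mitochondrial lysyl-tRNA synthetase that faces *MLF3* across their shared site, had a log2 fold change of 1.48 ± 0.13 SE (edgeR adjusted p = 9.49e-10). *HTC1*, which faces *RGL1*, had 36.7, 24.8 and 23.7 CPM in *gal80Δ*, against 8.86, 16.3 and 8.81 CPM in the wild type (log2 fold change 1.41 ± 0.25 SE, edgeR adjusted p = 0.00028). *RIO1*, an atypical protein kinase needed to mature the small ribosomal subunit, lies opposite *GCY1* with its coding start 498 bases from the *GCY1* site. It had 288.4, 607.4 and 565.2 CPM in *gal80Δ*, against 147.6, 183.3 and 193.7 CPM in the wild type, a log2 fold change of 1.502 ± 0.20 SE. *gal80Δ* replicate A was the lowest *gal80Δ* library for *RIO1* and still above every wild-type library.

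Other genes among the 15 with the largest rise have no match in the window searched. *OPT2*, an oligopeptide transporter family member, had 51, 38 and 51 counts in *gal80Δ*, against 4, 3 and 2 counts in the wild type. That is a ratio of 19.8 in summed counts per total (95% exact interval 10.1 to 44.1, counting error only). *NEL1*, a paralogue of the COPII coat subunit Sec23, had 56.6, 67.2 and 58.7 CPM in *gal80Δ*, against 4.85, 5.69 and 3.47 CPM in the wild type (log2 fold change 3.76 ± 0.21 SE, edgeR adjusted p = 1.43e-14). *SPO13*, a regulator of meiosis I, rested on 18, 8 and 12 counts in *gal80Δ* and 3, 1 and 7 in the wild type, and its call was lost without wild-type replicate B (edgeR adjusted p = 0.15).

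Genes around the deleted locus gave 2 of these rises. *AIM32*, a mitochondrial protein, begins 237 bases after the *GAL80* coding end and reads in the same direction. It had 158.6, 150.4 and 155.0 CPM in *gal80Δ*, against 13.8, 4.51 and 15.2 CPM in the wild type (log2 fold change 3.82 ± 0.27 SE, edgeR adjusted p = 4.18e-12). YML053C, an uncharacterised reading frame at chrXIII:169116-169754 on the opposite strand, had 724.0, 736.5 and 634.6 CPM in *gal80Δ*, against 66.1, 66.2 and 65.9 CPM in the wild type, a log2 fold change of 3.45 ± 0.16. *SUR7*, the eisosome protein between YML053C and *GAL80*, had 44.1, 30.2 and 29.2 CPM in *gal80Δ*, against 53.0, 33.7 and 52.4 CPM in the wild type, and did not pass (edgeR adjusted p = 0.35). The 2 raised genes thus lie on either side of *GAL80* with an uncalled gene between, and whether the way the locus was deleted has a part in their values was not tested.

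Several hexose transporter genes were lower in *gal80Δ*. Of 16 listed, 11 were tested, and 6 of these (54.5%, against 4.07% of all genes) were called lower and none higher. Their median log2 fold change was -0.997, against 0.03 over all genes. *HXT4*, a high-affinity carrier, had 6.91, 8.88 and 5.04 CPM in *gal80Δ*, against 63.2, 52.8 and 74.2 CPM in the wild type (log2 fold change -3.14 ± 0.31 SE, edgeR adjusted p = 7.83e-09). *HXT7*, a high-affinity carrier that serves at low sugar, had 88.4, 101.0 and 113.9 CPM in *gal80Δ*, against 357.6, 172.3 and 385.0 CPM in the wild type, a log2 fold change of -1.57 ± 0.25. Its near-identical neighbour *HXT6* had 185.0, 172.2 and 179.4 CPM in *gal80Δ*, against 541.0, 276.1 and 495.5 CPM in the wild type, and reads of the pair may be split between them, so each value is uncertain. Wild-type replicate B was the lowest wild-type library for *HXT4*, *HXT6* and *HXT7*.

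The other members called were *HXT3*, *HXT2* and *HXT13*. *HXT3*, a low-affinity carrier, had 11.6, 23.8 and 20.7 CPM in *gal80Δ*, against 35.7, 46.6 and 30.4 CPM in the wild type. *HXT2* had 33.6, 31.98 and 37.3 CPM in *gal80Δ*, against 63.5, 63.4 and 57.6 CPM in the wild type, a log2 fold change of -0.79 ± 0.18. *HXT13* rested on 0, 2 and 1 counts in *gal80Δ* and 11, 13 and 9 in the wild type, a ratio of 0.115 (95% exact interval 0.0227 to 0.368). Without wild-type replicate B 4 members passed, and *HXT3* and *HXT13* did not (edgeR adjusted p = 0.068 and 0.080).

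Among 23 genes of sugar sensing and glucose repression, 3 were called lower (13.04%, against 4.07% of all genes) and 1 higher (4.35%, against 3.43%), with a median log2 fold change of 0.12. *MIG2*, a repressor made when glucose is sensed, had 2.66, 3.13 and 5.93 CPM in *gal80Δ*, against 21.4, 37.8 and 11.9 CPM in the wild type (log2 fold change -2.54 ± 0.40 SE, edgeR adjusted p = 7.16e-05). *HXK2*, the main hexokinase and a partner of Mig1, had 54.7, 47.1 and 63.4 CPM in *gal80Δ*, against 113.6, 101.2 and 171.5 CPM in the wild type. *STD1*, the paralogue of *MTH1*, had 9.16, 13.97 and 12.1 CPM in *gal80Δ*, against 22.7, 15.3 and 19.4 CPM in the wild type, so that the 2 paralogues were called in opposite directions. *CAT8*, the activator of gluconeogenic genes, was higher by 0.54 ± 0.14 SE and lost its call without wild-type replicate B (edgeR adjusted p = 0.073).

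Many glycolytic genes were lower. Of 19 tested, 9 (47.4%, against 4.07% of all genes) were called lower and none higher, with a median of -0.67. Without wild-type replicate B 8 were called. Their summed level was 16837, 12674 and 12744 CPM in *gal80Δ*, against 24014, 21109 and 22597 CPM in the wild type. *TDH1*, the minor glyceraldehyde 3-phosphate dehydrogenase, had 75.8, 75.1 and 72.1 CPM in *gal80Δ*, against 301.5, 388.2 and 250.9 CPM in the wild type (log2 fold change -2.01 ± 0.18 SE, edgeR adjusted p = 9.04e-10). *TDH2*, another isozyme whose reads may be shared with the near-identical *TDH3*, had 319.6, 284.1 and 284.7 CPM in *gal80Δ*, against 805.7, 926.8 and 986.8 CPM in the wild type, a log2 fold change of -1.56 ± 0.16.

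*PFK27*, which makes fructose 2,6-bisphosphate, the activator of phosphofructokinase, had 10.9, 15.1 and 13.5 CPM in *gal80Δ*, against 36.8, 46.2 and 25.7 CPM in the wild type. *ENO1*, an enolase, had 584.6, 537.2 and 448.0 CPM in *gal80Δ*, against 1548, 1241 and 1188 CPM in the wild type, a log2 fold change of -1.29 ± 0.20 SE. *PDC1*, the main pyruvate decarboxylase and first step to ethanol, had 1321, 1852 and 1878 CPM in *gal80Δ*, against 3977, 4948 and 3511 CPM in the wild type (log2 fold change -1.25 ± 0.13 SE, edgeR adjusted p = 1.92e-08). It was the only 1 of 19 genes of ethanol and acetate metabolism that passed. In the fit of the 6 libraries alone *TDH1*, *TDH2* and *PFK27* passed for glycolysis, and *HXT4* and *MIG2* for uptake and sensing.

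**Figure D3:**
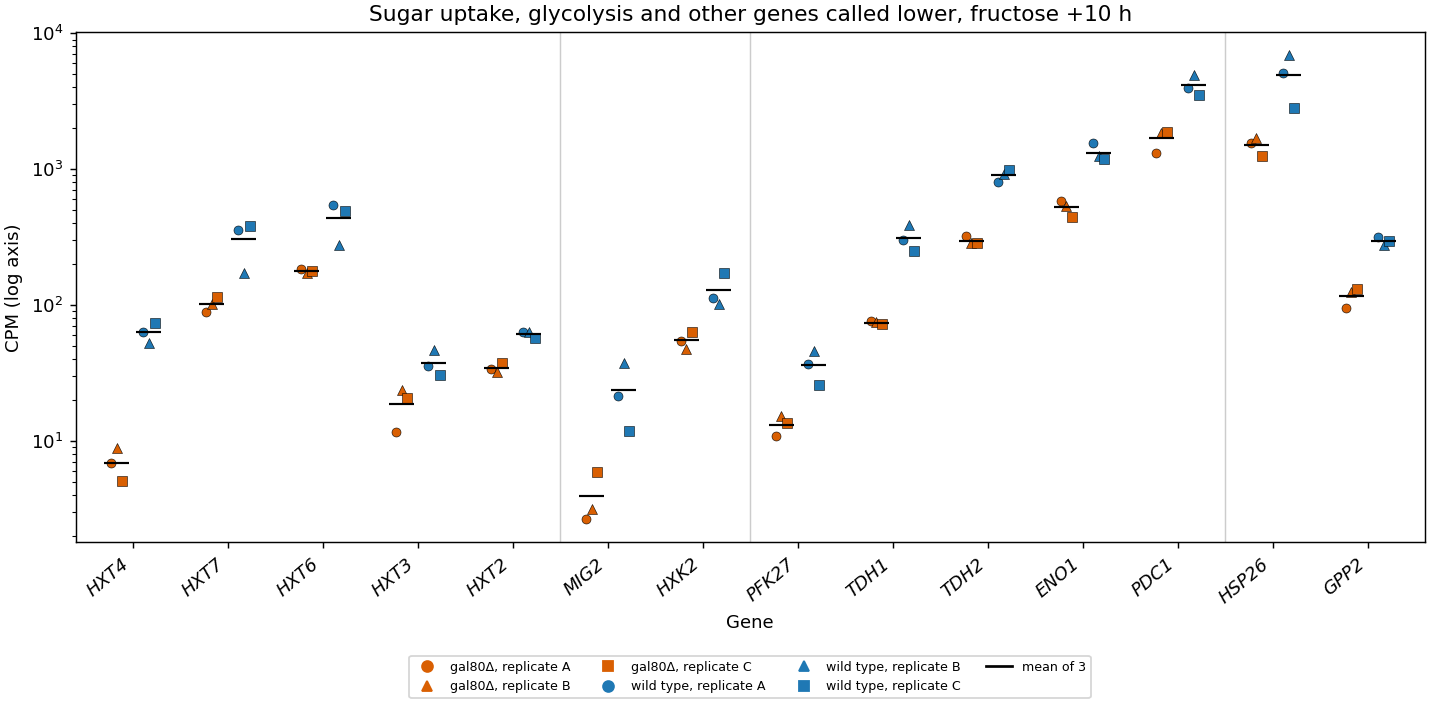
CPM on a log axis of genes called lower in *gal80Δ*, in blocks of hexose transporters, sugar sensing, glycolysis with *PDC1*, and 2 others, in each library, with *gal80Δ* left of wild type, a marker shape for each replicate and a bar for the mean of 3. The groups do not overlap for any gene shown, and for *HXT6* and *HXT7* wild-type replicate B (blue triangle) sits nearest to *gal80Δ*.

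Carriers and carnitine enzymes of the gluconeogenesis and glyoxylate list were higher. Of 14 tested, 4 (28.6%, against 3.43% of all genes) were called higher and none lower. The median log2 fold change was 0.44, and 13 of 14 lay above 0, against 2929 of all 5479 genes. The 4 were *CRC1*, the mitochondrial carnitine carrier, *YAT2* and *CAT2*, carnitine acetyltransferases, and *SFC1*, a succinate-fumarate carrier. *CRC1* had 2526, 3657 and 2659 CPM in *gal80Δ*, against 1576, 1117 and 1245 CPM in the wild type (log2 fold change 1.198 ± 0.18 SE, edgeR adjusted p = 4.90e-05). *YAT2* had 5262, 5803 and 5630 CPM in *gal80Δ*, against 3179, 3892 and 2356 CPM in the wild type. *SFC1* lost its call without wild-type replicate B (edgeR adjusted p = 0.090). All 4 missed it in the fit of the 6 libraries alone (edgeR adjusted p between 0.077 and 0.24).

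Some reserve carbohydrate genes were higher, and most of these calls were lost without wild-type replicate B. Of the 19 trehalose and glycogen genes tested 5 (26.3%, against 3.43% of all genes) were called higher and none lower. The median log2 fold change was 0.58. Without wild-type replicate B 1 was called and the median was 0.34. That 1 was *GSY2*, the main glycogen synthase, with 282.5, 288.0 and 259.8 CPM in *gal80Δ*, against 191.6, 195.0 and 112.7 CPM in the wild type (log2 fold change 0.79 ± 0.20 SE, edgeR adjusted p = 0.0099). *TPS1*, *TPS2* and *TSL1* of the trehalose synthase complex, and the trehalase *ATH1*, had log2 fold changes of 0.91, 0.84, 1.04 and 0.72, and edgeR adjusted p-values without that library of 0.11, 0.14, 0.21 and 0.16. None of the 5, *GSY2* included, kept its call in every fit that left out 1 of the 6 libraries. The summed level of the list was 2378, 2363 and 2081 CPM in *gal80Δ*, against 1829, 1362 and 1291 CPM in the wild type.

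Some genes for making ribosomes were lower by small amounts. Of 136 cytosolic ribosomal protein genes tested 21 (15.4%, against 4.07% of all genes) were called lower and none higher. A log2 fold change below 0 was seen for 124 of 136, against 2550 of all 5479 genes, with a median of -0.32. The largest was -0.88 ± 0.20 SE for *RPL36B*, with 1671, 1233 and 1175 CPM in *gal80Δ*, against 2027, 3777 and 2142 CPM in the wild type, and without wild-type replicate B, the highest, it was -0.60 and not called (edgeR adjusted p = 0.061). Many of these genes are duplicated with near-identical partners, so their values are uncertain one by one. Without wild-type replicate B 15 were called, 10 of them among the 21, and the median was -0.44. Of 55 ribosome assembly factors 5 (9.09%) were called lower, *UTP8*, *NOP15*, *UTP13*, *UTP4* and *NOP13*, between -0.71 and -0.57. In all 51 of the 55 lay below 0, and none of the 5 passed without that library. None of 69 mitochondrial ribosomal protein genes was called by edgeR or by DESeq2, with 10 at an unadjusted p below 0.05 and a median of -0.06.

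Synthesis and uptake genes for other nutrients showed single members rather than whole lists. Among 34 amino acid synthesis genes 5 (14.7%, against 4.07% of all genes) were called lower and none higher. They were *LEU1*, *LEU2* and *BAT1* of the leucine and branched-chain routes and *LYS1* and *LYS12* of lysine. *LEU2*, isopropylmalate dehydrogenase, had 225.5, 242.6 and 289.0 CPM in *gal80Δ*, against 387.4, 505.6 and 568.0 CPM in the wild type (log2 fold change -0.90 ± 0.13 SE, edgeR adjusted p = 2.73e-05). All 5 passed without wild-type replicate B, and 3 of them, *LEU1*, *LEU2* and *LYS1*, passed whichever single library of the 6 was left out. Both strains are prototrophs, and *LEU2* was the only 1 of 6 tested auxotrophy marker genes that passed.

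In purine synthesis *ADE17*, *IMD3* and *ADE4* (18.8% of 16 tested) were called lower and *IMD2* (6.25%) higher, against 4.07% and 3.43% of all genes. Without wild-type replicate B *ADE4* and *IMD2* were not called (edgeR adjusted p = 0.059 and 0.088). *AAH1*, the adenine deaminase of purine salvage, had 37.8, 54.6 and 69.0 CPM in *gal80Δ*, against 131.6, 202.9 and 172.0 CPM in the wild type (log2 fold change -1.61 ± 0.20 SE, edgeR adjusted p = 1.98e-06). Among 21 iron uptake genes, the siderophore genes *FIT2*, *ARN1* and *SIT1* were called lower (14.3%, at -0.91, -0.89 and -0.88). The enterobactin carrier *ENB1* was called higher (4.76%, at 0.55). Among 17 genes of the phosphate response *PHO84*, the high-affinity phosphate carrier, and *PHM8* were called lower (11.8%). *PHO84* rested on 1, 7 and 6 counts in *gal80Δ* and 21, 50 and 69 in the wild type, a ratio of 0.127 (95% exact interval 0.0677 to 0.220).

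Nitrogen genes split. Of 28 tested 3 (10.7%) were called higher and 5 (17.9%) lower, against 3.43% and 4.07% of all genes. The proline permease *PUT4* and the proline degradation enzyme *PUT2* were among those higher (0.71 and 0.69). Among those lower were the arginase *CAR1*, the urea permease *DUR3* and the ammonium permease *MEP1* (-0.90, -0.83 and -0.68). *PUT2* was not called without wild-type replicate B (edgeR adjusted p = 0.073). *HSP26*, a small heat shock chaperone, had 1555, 1710 and 1250 CPM in *gal80Δ*, against 5141, 6871 and 2801 CPM in the wild type (log2 fold change -1.64 ± 0.25 SE, edgeR adjusted p = 5.62e-05), and none of the other 24 chaperone genes tested was called. *DAK2*, a dihydroxyacetone kinase, was the lowest gene of all by fold, on 1, 4 and 0 counts in *gal80Δ* and 20, 28 and 26 in the wild type, a ratio of 0.0859 (95% exact interval 0.0271 to 0.210). *RRT5*, *BNA4* of NAD synthesis and the methyltransferase *EFM6* completed the 15 with the largest falls, at -1.93, -1.65 and -1.54, each below 13 CPM in every library.

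**Figure D4:**
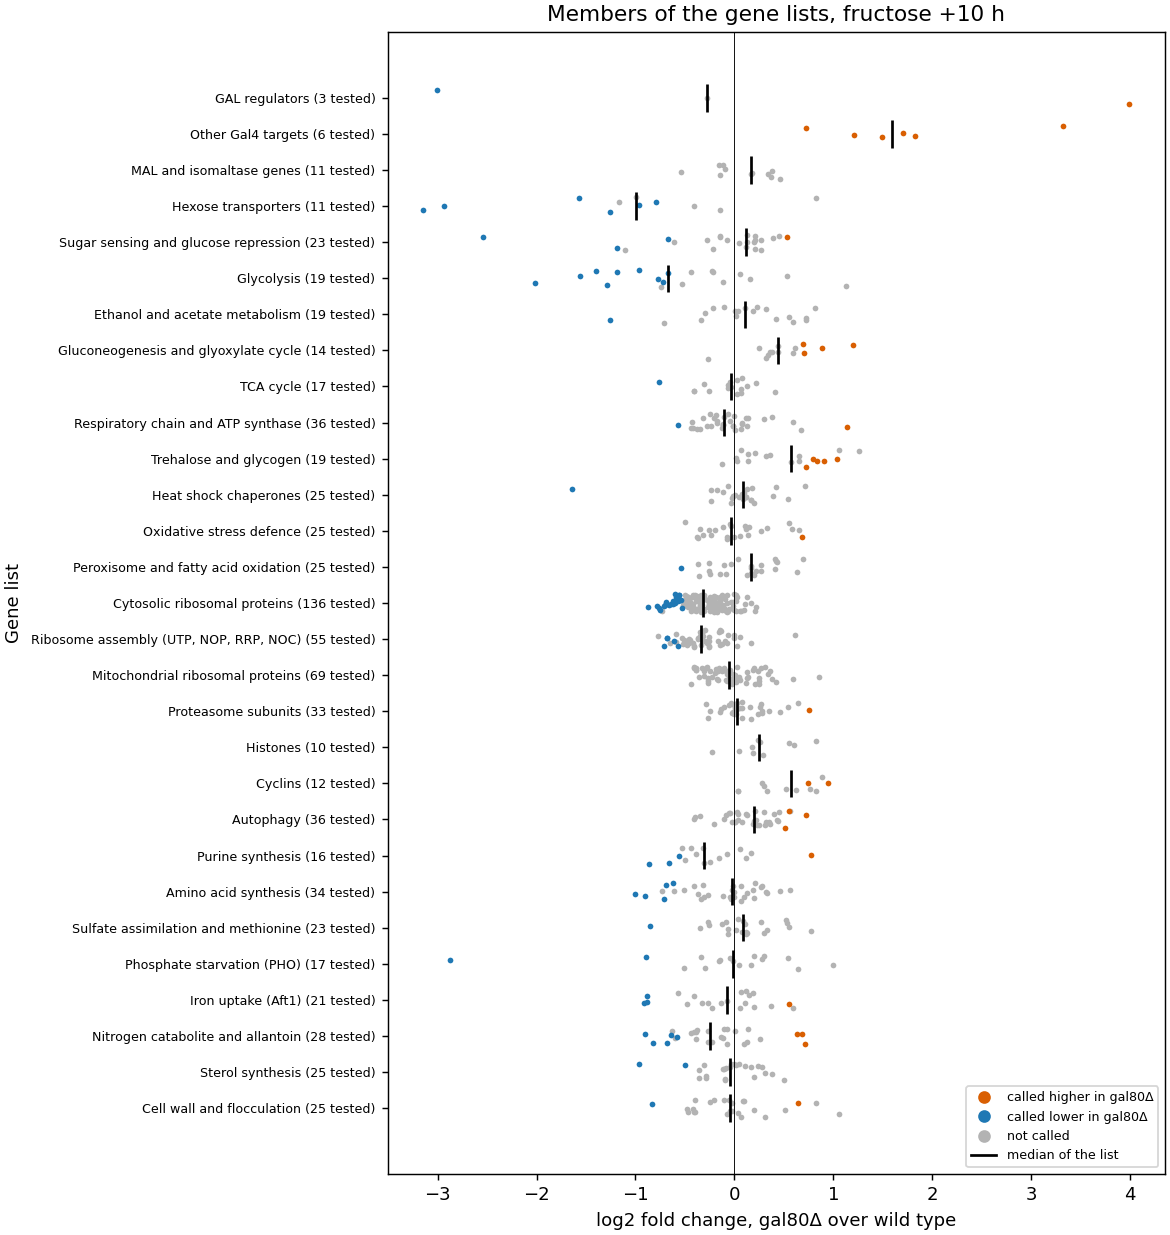
Each row is a gene list, each point a tested member at its log2 fold change of *gal80Δ* over wild type (x axis), and each black bar the median of the list. Hexose transporters (median -0.997) and glycolysis (-0.67) lie to the left, and other Gal4 targets (1.60), trehalose and glycogen (0.58) and gluconeogenesis (0.44) to the right.

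The remaining lists held few calls. In the respiratory chain (36 genes) *CYC7*, the hypoxic cytochrome c, was called higher and *ATP15* lower (2.78% each), against 3.43% and 4.07% of all genes. *CYC7* had 150.7, 92.8 and 104.9 CPM in *gal80Δ*, against 85.5, 14.7 and 62.2 CPM in the wild type, where replicate B was the lowest, and neither call held without that library (edgeR adjusted p = 0.16 and 0.10). Some lists had 1 call each, a share near that over all genes. They were *CTT1*, a catalase, of 25 oxidative stress genes (0.68, 4%) and *SAM1* of 23 sulfate and methionine genes (-0.85, 4.35%). The others were *RPN11* of 33 proteasome genes (0.75, 3.03%) and *FAA4* of 25 peroxisome genes (-0.54, 4%). Of these *CTT1*, *RPN11* and *FAA4* were not called without wild-type replicate B (edgeR adjusted p = 0.057, 0.17 and 0.057). Of 25 sterol synthesis genes *ERG25* and *ERG6* were called lower (-0.97 and -0.50, 8%). Of 25 cell wall genes *PIR3* was called lower and *TIP1* higher (-0.83 and 0.64, 4% each). Of 36 autophagy genes *ATG26*, *ATG3* and *ATG36* were called higher (0.72, 0.55 and 0.51, 8.33%). Without that library *ERG6* (edgeR adjusted p = 0.095), *TIP1* (0.16) and all 3 autophagy genes (0.051 to 0.15) were not called. Of 12 cyclins *CLN3* and *CLB1* were called higher (0.94 and 0.74), or 16.7%, against 3.43% of all genes. All 12 lay above 0, against 2929 of all 5479 genes, and *CLB1* was not called without that library (edgeR adjusted p = 0.11). *CLN3* had 81.7, 154.0 and 178.5 CPM in *gal80Δ*, against 83.1, 56.7 and 77.5 CPM in the wild type, so the groups overlapped. It did not pass in the fit of the 6 libraries alone (edgeR adjusted p = 0.23). None of the 10 histone genes was called by edgeR or by DESeq2, with 3 at an unadjusted p below 0.05.

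Of the mating-type markers, the 7 genes specific to a cells summed to 756.0, 691.0 and 598.5 CPM in *gal80Δ*, against 891.5, 1049 and 757.8 CPM in the wild type, and the 4 alpha-specific genes to 33.9, 34.5 and 34.5 CPM in *gal80Δ*, against 40.8, 34.9 and 35.7 CPM in the wild type. None of the 7 was called by edgeR, with 4 at an unadjusted p below 0.05, and DESeq2 called 2. *MF(ALPHA)1*, an alpha-factor gene, was the 1 alpha-specific gene called (lower), on 5, 17 and 7 counts in *gal80Δ* and 49, 94 and 28 in the wild type.

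The maltose and isomaltase (*MAL*) genes, whose products take up and split palatinose, were not called in fructose alone. Of 14 listed, 11 were tested, none was called by edgeR or DESeq2, 2 had an unadjusted p below 0.05, and log2 fold changes ran between -0.54 and 0.46. *MAL11*, the proton symporter, had 20.5, 17.6 and 18.1 CPM in *gal80Δ*, against 17.02, 13.2 and 12.1 CPM in the wild type, which did not overlap, with a log2 fold change of 0.46 ± 0.20 SE (edgeR adjusted p = 0.14). *IMA1*, an isomaltase, had 8.76, 9.40 and 10.5 CPM in *gal80Δ*, against 6.86, 9.12 and 6.83 CPM in the wild type. *IMA5*, another isomaltase, had 4.12, 5.61 and 4.44 CPM in *gal80Δ*, against 4.73, 7.40 and 4.16 CPM in the wild type. The regulators *MAL13*, *MAL33* and *ZNF1* had log2 fold changes of -0.10, 0.16 and 0.34. *MAL12* and *MAL32* are near-identical maltases and are uncertain one by one (-0.15 and -0.11), as are *MAL31*, *IMA2* and *IMA4* (0.18, 0.37 and -0.54). *IMA3*, *MPH2* and *MPH3* did not pass the filter on low counts, with 0 to 4 counts in each of the 6 libraries. With palatinose at the same time 4 of the 11 were called lower: *MAL12* (-2.85), *IMA5* (-2.63), *IMA1* (-2.55) and *MAL11* (-1.35).

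Whether the strains differed alike at other times was asked of separate libraries. At mid-log in fructose 210 genes (3.83%) were called higher and 182 (3.32%) lower in *gal80Δ*, or 7.15% in either direction, and at +16h 115 (2.1%) and 212 (3.87%), or 5.97%. Of the 188 genes higher at +10h, 62 were higher at mid-log (33.0% of them, 29.5% of the mid-log list) and 46 at +16h (24.5%, and 40.0% of that list). Of the 223 genes lower, 64 were lower at mid-log (28.7%, and 35.2% of that list) and 76 at +16h (34.1%, and 35.8%). The calls shared by all 3 times numbered 31 higher and 34 lower. The 4 *GAL* structural genes, *GAL3* and all 6 other Gal4 targets were called at each time, as were *GAL80* and *HXT4* among the lower genes.

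The difference between times was itself tested. The test treated libraries of different times as independent, and any repeated sampling of the same flasks was not modelled. For 34 genes (0.621%) the strain difference at +10h was unlike that at mid-log, 12 of them (0.219% of genes) more positive and 22 (0.402%) more negative, and 21 of the 34 were also called at +10h. *NEL1* changed the most: at mid-log it had 1.73, 1.98 and 0.909 CPM in *gal80Δ*, and its log2 fold change there was -0.38, so the +10h difference exceeded it by 4.14 ± 0.37 SE (edgeR adjusted p = 1.97e-08). Gains of 1.33 to 1.74 were found for YML053C, *RIO1*, *FAR1* and *ADH6*. For *ADH6* the *gal80Δ* level was 991, 1006 and 1235 CPM at mid-log and 964.7, 788.0 and 942.0 CPM at +10h, while the wild type had 542.4, 566.2 and 621.2 CPM at mid-log and 174.9, 240.2 and 195.6 CPM at +10h.

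In the other direction stood *HSP26*, *BNA4*, *TDH1*, *GPP2* and *ENO1*, whose strain difference at +10h was lower than at mid-log, by differences of -1.55 to -2.15. None of the 5 was called between strains at mid-log. *ENO1* had 332.8, 268.4 and 446.8 CPM in *gal80Δ* at mid-log, against 330.0, 272.7 and 259.1 CPM in the wild type, so the groups overlapped there. *GPP2*, a glycerol 3-phosphatase, had 93.1, 78.1 and 63.5 CPM in *gal80Δ* at mid-log, against 75.7, 49.2 and 55.2 CPM in the wild type. At +10h it had 95.5, 125.1 and 131.8 CPM in *gal80Δ*, against 316.6, 275.7 and 296.8 CPM in the wild type. All 10 genes named here kept an edgeR adjusted p below 0.05 without wild-type replicate B.

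Against +16h the difference was called for 36 genes (0.657%), 15 (0.274%) more positive and 21 (0.383%) more negative, and without wild-type replicate B for 10. Without replicate C of all groups it was called for 0 genes, with 547 at an unadjusted p below 0.05. Such a fit also has fewer libraries in every group, and which genes stand here is uncertain. For *HXT2* the log2 fold change was -0.79 at +10h and -2.40 at +16h, a difference of 1.61 ± 0.26 SE (edgeR adjusted p = 0.0018, and 0.0072 without wild-type replicate B). At +16h it had 64.3, 57.4 and 62.0 CPM in *gal80Δ*, against 247.5, 246.6 and 431.3 CPM in the wild type. *PDR10*, an ABC transporter, was called higher at +10h (0.57) and lower at +16h (-0.76), and its +10h call was lost without wild-type replicate B (edgeR adjusted p = 0.061). *ALK1*, a haspin-like kinase, had 87.5, 89.2 and 90.7 CPM in *gal80Δ* at +10h, against 32.6, 24.5 and 46.8 CPM in the wild type, and the strains overlapped at +16h.

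**Figure D5:**
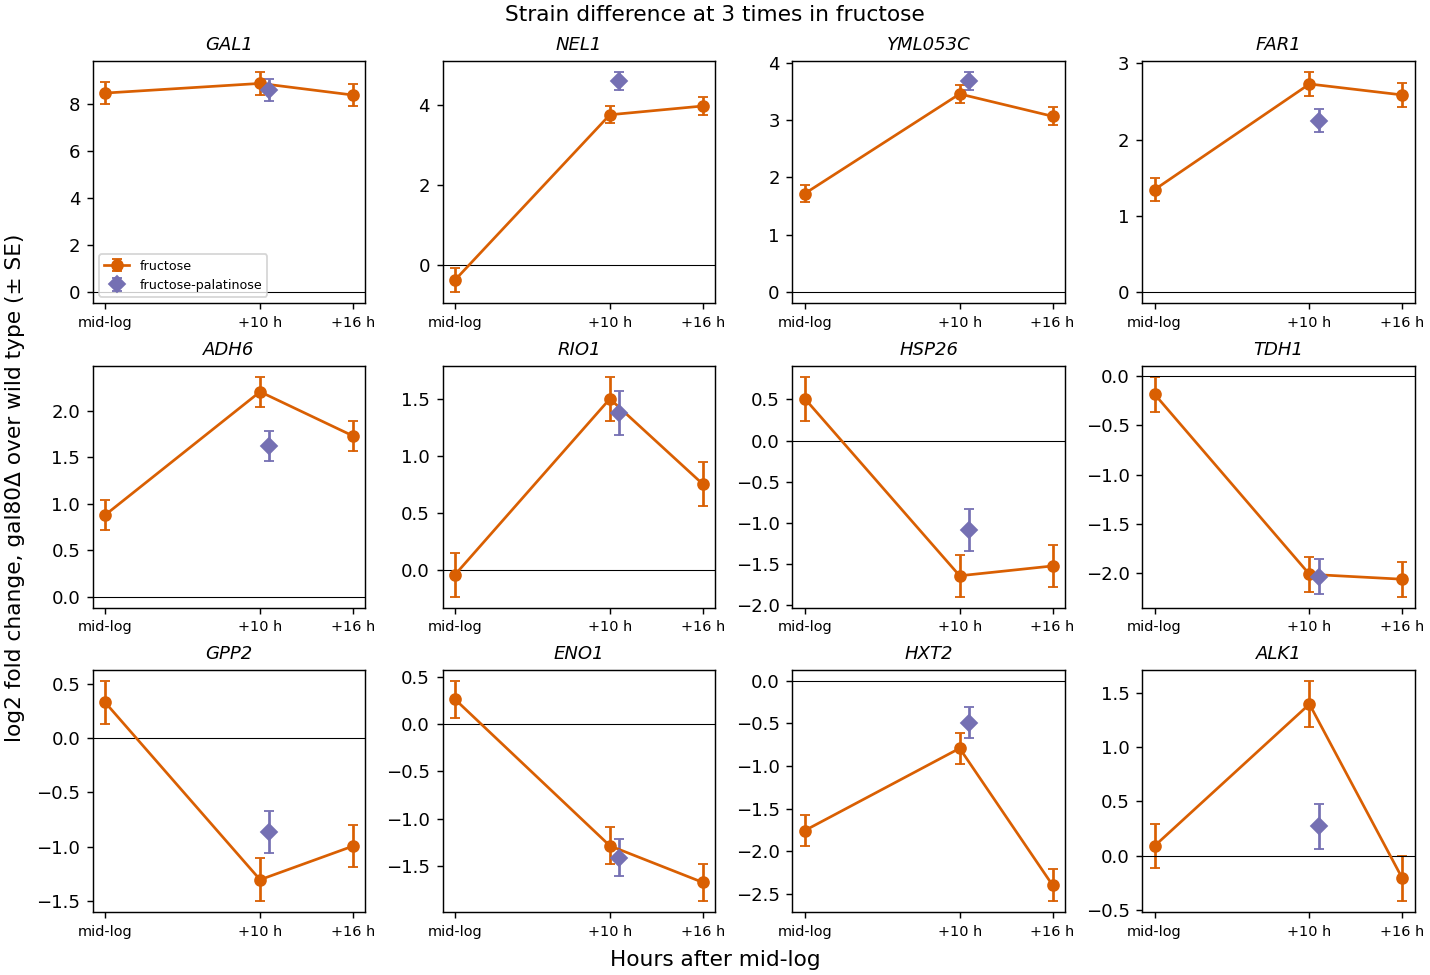
Log2 fold change of *gal80Δ* over wild type (y axis, bars ± SE, scale set for each gene) at mid-log, +10h and +16h in fructose (orange), and at +10h in fructose-palatinose (purple), for 12 genes. *GAL1* stays near 8.4 to 8.9, *NEL1* moves between -0.38 at mid-log and 3.76 at +10h, and *TDH1* between -0.18 and -2.01.

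With palatinose added to the same fructose, 368 genes (6.72%) were higher and 413 (7.54%) lower in *gal80Δ* at +10h, or 14.3% in either direction. Of the 188 genes higher in fructose 92 were higher there too (48.9%, and 25.0% of that list), and of the 223 lower 122 (54.7%, and 29.5%). The strain difference itself differed between media for 44 genes (0.803%), 30 (0.548%) more positive in fructose and 14 (0.256%) more negative, and 14 of the 44 were called in fructose. Amino acid permeases were among them. *BAP3*, for branched-chain amino acids, had 11.8, 11.1 and 12.1 CPM in *gal80Δ* in fructose, against 26.4, 32.9 and 36.2 CPM in the wild type, and with palatinose the difference was not called (log2 fold changes -1.40 and 0.31). *AGP1*, a broad permease, was called lower in fructose (-0.58) and higher with palatinose (0.82), and its call in fructose was lost without wild-type replicate B (edgeR adjusted p = 0.069). *DIP5*, for acidic amino acids, and *CRC1* were higher in both media, and by more with palatinose (1.31 and 2.57 for *DIP5*, 1.198 and 2.25 for *CRC1*).

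In the opposite sense YJL218W, an acetyltransferase-like reading frame near *IMA5*, had 7.97, 9.14 and 7.26 CPM in *gal80Δ* in fructose, against 4.14, 4.08 and 4.46 CPM in the wild type. With palatinose it had 27.5, 26.5 and 30.5 CPM in *gal80Δ*, against 72.7, 67.0 and 76.8 CPM in the wild type, so its call turned round between media (log2 fold changes 0.99 and -1.48, difference 2.47 ± 0.26 SE, edgeR adjusted p = 2.77e-07). By chromosome the median log2 fold change lay between -0.02 and 0.07 for all 16 nuclear chromosomes, XIII with *GAL80* among them at 0.03.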

How the data were processed

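RNA from 36 samples (12 groups of 3) was sequenced as 3′-end libraries. Whether the same flasks were sampled at each time is not stated in the sources used here. The authors deposited raw counts per gene, not normalized, against R64 with an annotation extended by 3′UTRs (125 nt by default). The submitters' processing notes name FastQC 0.11.9, cutadapt 1.18, HISAT2 2.1.0, SAMtools 1.11, bedtools 2.30.0, featureCounts (Subread 2.0.0) and MultiQC 1.13. Reads of near-identical genes could be split by this counting. The count table also holds 1 column of CPM, which was not used. OD at harvest was deposited in a separate table. Of 5697 genes 5551 matched a RefSeq R64 locus tag, which also gave gene symbols, since the table gives some short genes a neighbour's name.

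Counts were tested with edgeR 4.0.16 in R 4.3.3 (quasi-likelihood, TMM, filterByExpr, 5479 genes), with all 36 libraries in 1 fit and a coefficient per group (common dispersion 0.0314), and Benjamini-Hochberg adjustment over all genes tested. SEs are of log2 fold changes and were derived from the test. Each is the size of the unshrunk log2 fold change divided by the square root of the quasi-likelihood F. limma 3.58.1 was loaded with edgeR, and DESeq2 1.42.0 served as an alternative. Tables, exact permutation tests and plots used Python 3.11.15, pandas 2.3.3, numpy 2.4.6, scipy 1.17.1 and matplotlib 3.10.9. Tested on simulated data for this comparison (5469 genes), the fit recovered 90.6% of 96 genes changed 2-fold and 99.0% of 104 changed 4-fold, with 11 false calls. The simulation gave each gene the same spread in all groups, had no library set apart like wild-type replicate B, and changed no genes of low count. Its rates therefore need not hold for the real libraries.

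Named genes were *GAL80* in every library, all members of the *GAL*, Gal4 target and *MAL* lists, the 15 called genes with the largest and the 15 with the smallest log2 fold change whose groups did not overlap, up to 5 called genes of each other list, 5 per direction for each difference between times or media among genes also called between strains, and the genes next to *GAL80*. Members and lists were chosen with earlier results of these data known. Alternatives covered scaling, filter, DESeq2, fold minimum, libraries left out, the replicate letter as a block and a fit of the compared groups alone. Counting intervals are exact and cover counting error only. The result for 1 listed gene is not reported here.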

Additional observations from a re-analysis of the deposited data

Results flagged for a closer look

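For the genes below the strain difference (log2 fold change of *gal80Δ* over wild type) at +10h in fructose differed from that at another time or in another medium by edgeR's test of the difference itself, adjusted over all genes. Each is among the 5 largest or smallest such differences of genes also called between strains at +10h, and its explanation was not examined.

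Compared with mid-log, the difference was lower at +10h for *HSP26* (-2.15), *BNA4* (-2.10), *TDH1* (-1.83), *GPP2* (-1.63) and *ENO1* (-1.55). It was higher for *NEL1* (4.14), YML053C (1.74), *RIO1* (1.54), *FAR1* (1.39) and *ADH6* (1.33).

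Compared with +16h, it was lower at +10h for YDR222W (-1.21), *SAM1* (-1.21), *RFU1* (-1.19), *MBA1* (-1.13) and *LEU1* (-0.99). It was higher for *CDA2* (2.21), *HXT2* (1.61), *ALK1* (1.60), *MTR10* (1.39) and *PDR10* (1.33). Without wild-type replicate B at +10h the edgeR adjusted p was 0.059 for YDR222W, 0.17 for *RFU1*, 0.11 for *LEU1* and 0.081 for *MTR10*, and stayed below 0.05 for the other 6.

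Compared with fructose-palatinose at the same time, it was lower in fructose for *BAP3* (-1.70), *AGP1* (-1.41), *BAP2* (-1.34), *DIP5* (-1.26) and *CRC1* (-1.05). It was higher for YJL218W (2.47), *DSE2* (1.90), *IMD2* (1.61), *AIM20* (1.59) and *HO* (1.36). Without wild-type replicate B the edgeR adjusted p was 0.068 for *BAP2*, 0.072 for *DSE2* and 0.068 for *AIM20*. The strain call at +10h itself was lost without that library for *CDA2*, *DSE2*, *MTR10*, *IMD2*, *PDR10* and *AGP1* (edgeR adjusted p = 0.089, 0.076, 0.057, 0.088, 0.061 and 0.069).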

How the results depend on the processing

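The counts of 188 genes higher and 223 lower stayed within 1.5 times under library-size or RLE scaling, other count filters, DESeq2 (191 and 273) and no fold minimum, and no named gene that was called turned its direction under any alternative run. Of the uncalled *MAL* genes, *MAL13* (-0.10) and *IMA5* (-0.14) turned to 0.10 each without wild-type replicate B. They were 25 and 14 in a fit of the 6 compared libraries alone, 30 and 24 there without wild-type replicate B (chosen after seeing the data), 46 and 41 with a fold minimum of 1 on the log2 scale, and 30 and 34 with glmTreat against 0.5. Leaving out 1 of the 6 libraries gave 106 to 221 higher and 136 to 250 lower, and leaving out 1 replicate letter from every group 48 to 113 and 48 to 167. Of 114 named called genes 83 lost their call in the fit of the 6 libraries and 37 without wild-type replicate B, and at most 5 under each scaling, filter, block or DESeq2 alternative. Named genes that a filter left untested are not in these numbers. With a mean of at least 10 CPM required, 102 of the 114 kept their call and 2 lost it.

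The difference from mid-log (34 genes) was called for 69 genes by DESeq2, 2 in a fit of the compared groups, 50 without wild-type replicate B at +10h (chosen after seeing the data), 22 with a fold minimum of 1, 12 with glmTreat, and 9 to 33 without 1 replicate letter. The difference from +16h (36 genes) was called for 131 by DESeq2, 0 in a fit of the compared groups by edgeR (564 at an unadjusted p below 0.05), 10 without wild-type replicate B (chosen after seeing the data), 17 with a fold minimum of 1, 0 with glmTreat (838 at an unadjusted p below 0.05 by the quasi-likelihood test), and 0 to 7 without 1 letter. Without letter B, 891 genes had an unadjusted p below 0.05, and without letter C 547. The difference from fructose-palatinose (44 genes) was called for 92 by DESeq2, 22 in a fit of the compared groups, 14 with glmTreat, and 6 to 28 without 1 letter. The cause of these changes was not tested, beyond the fewer samples in each such fit.

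Between the strains of the main comparison, replicate letters did not pair the samples. Deviations of their same-lettered libraries correlated at 0.0932 (A), -0.0125 (B) and 0.0539 (C). Whether same-lettered libraries pair across times or media within a strain was not tested, and these values cannot show it. With the replicate block 190 genes were higher and 220 lower, 393 of the 411 calls were shared, *IMD2*, *ATG3*, *BAT1* and *DUR3* were not called (edgeR adjusted p = 0.056, 0.053, 0.060 and 0.057), *ERG6* fell just under the fold minimum, and the differences were called for 34, 26 and 47 genes. Genes with few counts, such as *HXT13*, *DAK2* and *SPO13*, are limited by depth.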
